A study of Mus musculus with 9 samples.

Results

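The 7 genes Plvap, Gpihbp1, Esm1, Ppap2b, Cd300lg, Car8 and Car4 were followed, as 7 of 46517 gene rows, across the 9 cell labels of a single-cell RNA data set of adult mouse brain vessels, under the name of fenestrated endothelium genes. Ppap2b is the older symbol of Plpp3, and the table uses it. The genes were chosen by their levels in these same cells, above all in the label CP-EC, so their height in CP-EC is given as a description and supports nothing by itself. All 7 were found as rows of the table, and all 7 had over 5 counts per 1000000 reads (CPM) in at least 1 label. The name holds for these data only in part: Plvap, Gpihbp1, Esm1, Cd300lg and Car8 were high in CP-EC alone, Ppap2b was as high in FB, and Car4 was highest in capilEC.

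Fenestrated endothelium is capillary wall pierced by pores, most of which are closed by a thin protein diaphragm. In the brain it lines the vessels of the choroid plexus and of the circumventricular organs, which let plasma solutes through, whereas the other brain capillaries are sealed by tight junctions and form the blood-brain barrier. Vascular endothelial growth factor (VEGF), which signals through the receptor encoded by Kdr, is known to keep the pores in place, and Wnt signalling is known to drive the barrier state.

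Brain microvessels of adult mice were broken into single cells, sorted into 384-well plates and read with Smart-seq2, a protocol that covers whole transcripts and tags no single molecules. The labels used here were CP-EC (17 cells), aEC (116), vEC (45), PC (54), aSMC (41), vSMC (29), FB (9), MG (137) and capilEC (787), written as deposited, since no source at hand gives them in full. No genotype, strain or treatment is named for any group. Each label was deposited as 1 sample and no animal is named, so no test between labels was possible and the 95% intervals cover counting error only. The table held 285520064 reads in 1235 cells from 4 plates (s169s, s480s, s482s and s483s), with 100021 to 854836 reads per cell, and 0 cell names occurred more than once. The CP-EC cells lay on all 4 plates, 4 on s169s, 1 on s480s, 2 on s482s and 10 on s483s. The summed level of 12 general endothelial markers was 16397 CPM in CP-EC and 17304 CPM in capilEC, and no CP-EC cell fell below 10380.2 CPM. Of 12 markers of choroid plexus epithelium, summed to 452 CPM in CP-EC and 105 CPM in capilEC, 3 were measured and 0 met the size rule given below. Folr1, Clic6, Otx2 and Cldn2 had no read in CP-EC, but the 3 measured markers were all higher in CP-EC than in capilEC. Aqp1 had 135 CPM in CP-EC and 0.0405 CPM in capilEC, with a read in 2 of 17 CP-EC cells. Ttr, the transthyretin gene, stood at 63.5 CPM in CP-EC and 9.81 CPM in capilEC, with a read in 3 of 17 CP-EC cells. Enpp2 had 250.5 CPM in CP-EC and 92.6 CPM in capilEC. The size rule asks for a read in at least 50% of cells, so it cannot call RNA carried by few cells.

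Of the 17 CP-EC cells, 2 stood apart from the other 15. The cell in well K17 of plate s482s had 2765 CPM and that in well K15 of plate s483s had 5270 CPM of Cldn5, the claudin of the barrier's tight junctions, while the other 15 CP-EC cells had 82.6 to 372 CPM; the limit of 1000 CPM that separates them was set after the values were seen. Neither of these cells had a read of Plvap, Gpihbp1, Cd300lg or Car8. The summed level of 19 barrier genes was 19837 CPM in K17 and 18825 CPM in K15, against 2404 to 11805 CPM in the other 15 CP-EC cells and a median of 38300 CPM in capilEC cells. Kdr did not set them apart, at 2034 CPM in K17, 1279 CPM in K15 and 1057 to 3969 CPM in the other 15. Levels are given below for all 17 cells, and without these 2 where that matters.

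Sequences were at hand for the start regions of 3 of the 7 genes in the RefSeq promoter table of build GRCm38.p6, and they are shown because these genes span the patterns found: Esm1 in CP-EC alone, Ppap2b also in FB and aSMC, and Car4 in several labels. The table was matched for no other of the 7, which leaves Plvap, Gpihbp1, Cd300lg and Car8 named only. Each window runs from 250 bases before to 50 bases after the annotated start. Capitals mark matches, on either strand, to 6 short motifs: the ETS core CCGGAA, the TCF/LEF motif CTTTGA, the GATA motif AGATAA, the SOX motif ACAAAG, the TATA box TATAAA and the forkhead motif TAAACA.
Esm1 (chr13:113209409-113209708, plus strand): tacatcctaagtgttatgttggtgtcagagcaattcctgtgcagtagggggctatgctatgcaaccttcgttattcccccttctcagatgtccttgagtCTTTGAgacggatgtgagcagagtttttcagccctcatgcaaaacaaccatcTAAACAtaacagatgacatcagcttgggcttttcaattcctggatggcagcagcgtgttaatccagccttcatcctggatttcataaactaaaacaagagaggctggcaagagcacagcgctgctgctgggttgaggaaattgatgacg
Ppap2b (chr4:105157097-105157396, plus strand): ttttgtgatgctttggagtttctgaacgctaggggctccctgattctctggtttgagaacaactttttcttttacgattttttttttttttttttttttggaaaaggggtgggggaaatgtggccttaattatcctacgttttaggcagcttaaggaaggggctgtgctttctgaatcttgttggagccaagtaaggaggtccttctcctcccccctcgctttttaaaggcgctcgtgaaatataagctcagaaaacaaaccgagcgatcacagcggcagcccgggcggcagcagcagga
Car4 (chr11:84957504-84957803, plus strand): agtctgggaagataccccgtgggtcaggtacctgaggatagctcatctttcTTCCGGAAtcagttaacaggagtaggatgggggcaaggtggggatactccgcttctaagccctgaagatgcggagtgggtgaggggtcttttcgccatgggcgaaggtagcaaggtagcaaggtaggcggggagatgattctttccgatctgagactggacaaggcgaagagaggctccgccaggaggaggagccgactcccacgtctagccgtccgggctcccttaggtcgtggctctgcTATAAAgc
The Esm1 window held CTTTGA from 151 to 146 bases before the start and TAAACA from 99 to 94 bases before it. The Car4 window held the ETS core on both strands, overlapping within the stretch from 199 to 192 bases before the start, and TATAAA from 42 to 47 bases after it. None of the 6 motifs occurred in the Ppap2b window. Such matches are common: of 32851 promoter windows of the same length, 5257 held CTTTGA, and the shares of the others were 13.4% for TAAACA, 14.9% for CCGGAA, 13.6% for TATAAA, 11.2% for AGATAA and 18.7% for ACAAAG. A match is a run of letters, and binding was not measured here.

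Plvap encodes the protein from which the diaphragms of fenestrae are built. Its level was 2223 CPM in CP-EC (exact Poisson interval 2173 to 2275), 6.26 CPM in aEC, 0.708 CPM in vEC, 0.561 CPM in PC, 0.430 CPM in aSMC, 0.636 CPM in vSMC, 9.75 CPM in MG and 1.62 CPM in capilEC. FB had 0 reads, where 3 reads would have been 1.17 CPM. Within CP-EC, 15 of 17 cells had a Plvap read, and those 15 ranged from 254 CPM in well P12 to 6474 CPM in well M20, both on plate s483s, with a median of 1811 CPM. In capilEC, 77 of 787 cells had a Plvap read, at a median depth of 192941 reads per cell against 172854 in CP-EC. Without the 2 cells high in Cldn5 the CP-EC level was 2759 CPM. Plates s169s and s483s gave 2306 and 2719 CPM in CP-EC.

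Single cells held much of the Plvap signal of 3 other labels. In aEC 1 cell with 797 CPM held 92.3% of the label's Plvap reads, and without it aEC stood at 0.483 CPM. In capilEC 1 cell with 543 CPM held 60.4% of the reads, and the level without it was 0.643 CPM. MG had 3 cells of at least 100 CPM, at 199.7, 314 and 720 CPM. Below CP-EC the plate ranges of neighbouring labels in the order of Plvap levels overlapped, so these labels were not separated beyond that spread.

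Gpihbp1 encodes an endothelial surface protein that carries lipoprotein lipase across the capillary wall and holds it on the blood side. It stood at 1061 CPM in CP-EC (1026 to 1097), 0.543 CPM in aEC, 3.54 CPM in vEC, 0.374 CPM in PC, 0.258 CPM in aSMC, 0.159 CPM in vSMC, 0 in FB, 1.29 CPM in MG and 0.405 CPM in capilEC. In CP-EC 11 of 17 cells had a read, and the highest, well H1 of plate s169s, reached 3697 CPM. Each of these 11 cells also had Plvap at 100 CPM or more. Outside CP-EC the only cell with at least 100 CPM was an MG cell with 176 CPM. In vEC 1 of the 8 cells with a read held 82% of the Gpihbp1 reads, and without it vEC stood at 0.667 CPM.

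Esm1 encodes endocan, a secreted proteoglycan known as a VEGF-responsive gene of endothelial tip cells. Its level was 989.9 CPM in CP-EC (956 to 1024), 0.319 CPM in aEC, 0.0708 CPM in vEC, 0.172 CPM in aSMC, 0.159 CPM in vSMC, 0.0920 CPM in MG and 0.231 CPM in capilEC. PC and FB had 0 reads, where 3 reads would have been 0.2803 CPM in PC and 1.17 CPM in FB. No cell outside CP-EC reached 100 CPM. Of the 7 genes Esm1 was read in the fewest CP-EC cells: 7 of 17 cells had a read, at 1056 to 3472 CPM, and 10 had none. Among the 7 was the cell in well K17, high in Cldn5, with 1723 CPM of Esm1. The level was 244 CPM on plate s169s and 1034 CPM on plate s483s.

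Ppap2b encodes a lipid phosphate phosphatase of the cell surface that removes the phosphate from lysophosphatidic acid and sphingosine 1-phosphate. Its level in CPM was highest in CP-EC, FB and aSMC. It stood at 856.6 CPM in CP-EC (825 to 889), 39.7 CPM in aEC, 4.82 CPM in vEC, 57.7 CPM in PC, 406 CPM in aSMC, 119 CPM in vSMC, 873 CPM in FB (837 to 910.0), 2.51 CPM in MG and 20.04 CPM in capilEC. The intervals of FB and CP-EC overlapped, so these labels were not distinguishable by counting error. CP-EC was 2.11-fold above aSMC, and over plates with at least 3 cells their ranges did not overlap. The 1 CP-EC cell of plate s480s had 108 CPM, below the lowest aSMC plate at 243 CPM, and the 2 of plate s482s had 687 CPM. CP-EC plates s169s and s483s gave 831 and 1016 CPM. The only plate with enough FB cells, s169s with 4, gave 288 CPM, so the FB level came mainly from the other 5 cells.

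Most cells of CP-EC, aSMC and FB carried Ppap2b, with 14 of 17, 27 of 41 and 7 of 9 cells at 100 CPM or more. In vSMC the same level was reached by 3 of 29 cells, in PC by 5 of 54, in aEC by 9 of 116 and in capilEC by 20 of 787. The vSMC value came from plates s169s and s480s, at 329 and 218 CPM, while plates s482s and s483s gave 0.509 and 0 CPM. The aEC level was 2.19 log2 units above vEC, on the log2(CPM + 5) scale used for all differences here, with a read in 26 of 116 aEC cells and 8 of 45 vEC cells.

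Cd300lg encodes an immunoglobulin-type receptor of endothelial cells, known as nepmucin, that can bind L-selectin on lymphocytes. Its level was 726 CPM in CP-EC (698 to 756), 5.75 CPM in aEC, 0.496 CPM in vEC, 0 in PC, 0.344 CPM in aSMC, 0.159 CPM in vSMC, 0.782 CPM in FB, 14.8 CPM in MG and 13.8 CPM in capilEC. In CP-EC 11 of 17 cells had a read, and the plates differed, with 2289 CPM in the 4 cells of s169s and 676 CPM in the 10 cells of s483s.

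Unlike the other genes of low background, Cd300lg was also high in a small set of capilEC cells. At 100 CPM or more were 12 of 787 capilEC cells, spread over all 4 plates, with 139 to 3069 CPM and a median of 628 CPM. None of these 12 cells had a Plvap read, Gpihbp1 stayed at or below 5.96 CPM in them, and Cldn5 stood at 2202 to 6233 CPM. Of the 12, 6 had Car4 below 100 CPM and 6 at 1000 CPM or more. Among them, well B24 of plate s480s also had 866 CPM of Ppap2b. A single aEC cell had 640.1 CPM of Cd300lg, and 3 MG cells had 270.1, 318 and 919 CPM.

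Car8 encodes a carbonic anhydrase-related protein without enzyme activity, best known from cerebellar Purkinje neurons, where it binds an inositol trisphosphate receptor. It stood at 567 CPM in CP-EC (542 to 593), 0.0958 CPM in aEC, 0.213 CPM in vEC, 0.2803 CPM in PC, 0.172 CPM in aSMC, 2.54 CPM in vSMC, 0.391 CPM in FB, 0.705 CPM in MG and 0.861 CPM in capilEC. In CP-EC 11 of 17 cells had a read, all of them with Plvap, at 118 to 2048 CPM. Outside CP-EC 1 cell, in capilEC, reached 100 CPM, at 937 CPM, and it held 73.8% of that label's Car8 reads. Of the vSMC reads 1 cell held 93.8%.

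Car4 encodes a carbonic anhydrase anchored to the outer face of capillary endothelium, where it speeds the exchange of carbon dioxide and bicarbonate. Unlike the other 6 genes it stood at 702 CPM or more in 5 of the 9 labels. Of these labels, PC had 41 of 54 cells with markers of a class other than their own. Without such cells 4 labels stood at 702 CPM or more, and the 13 PC cells kept had 442 CPM, against 211 CPM in aEC. In vSMC the same filter removed 13 of 29 cells, and the 16 kept had 1578 CPM. Whether the PC level came from other cells was not tested. With all cells the Car4 level was 1285 CPM in CP-EC (1247 to 1325), 205 CPM in aEC, 702 CPM in vEC, 1069 CPM in PC, 89.1 CPM in aSMC, 1238 CPM in vSMC, 25.8 CPM in FB, 48.4 CPM in MG and 1646 CPM in capilEC (1640 to 1652). In the order of levels capilEC came first, then CP-EC, vSMC, PC, vEC, aEC, aSMC, MG and FB. The plate ranges of all neighbours in that order overlapped, so neighbours did not differ beyond that spread.

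**Figure D1:**
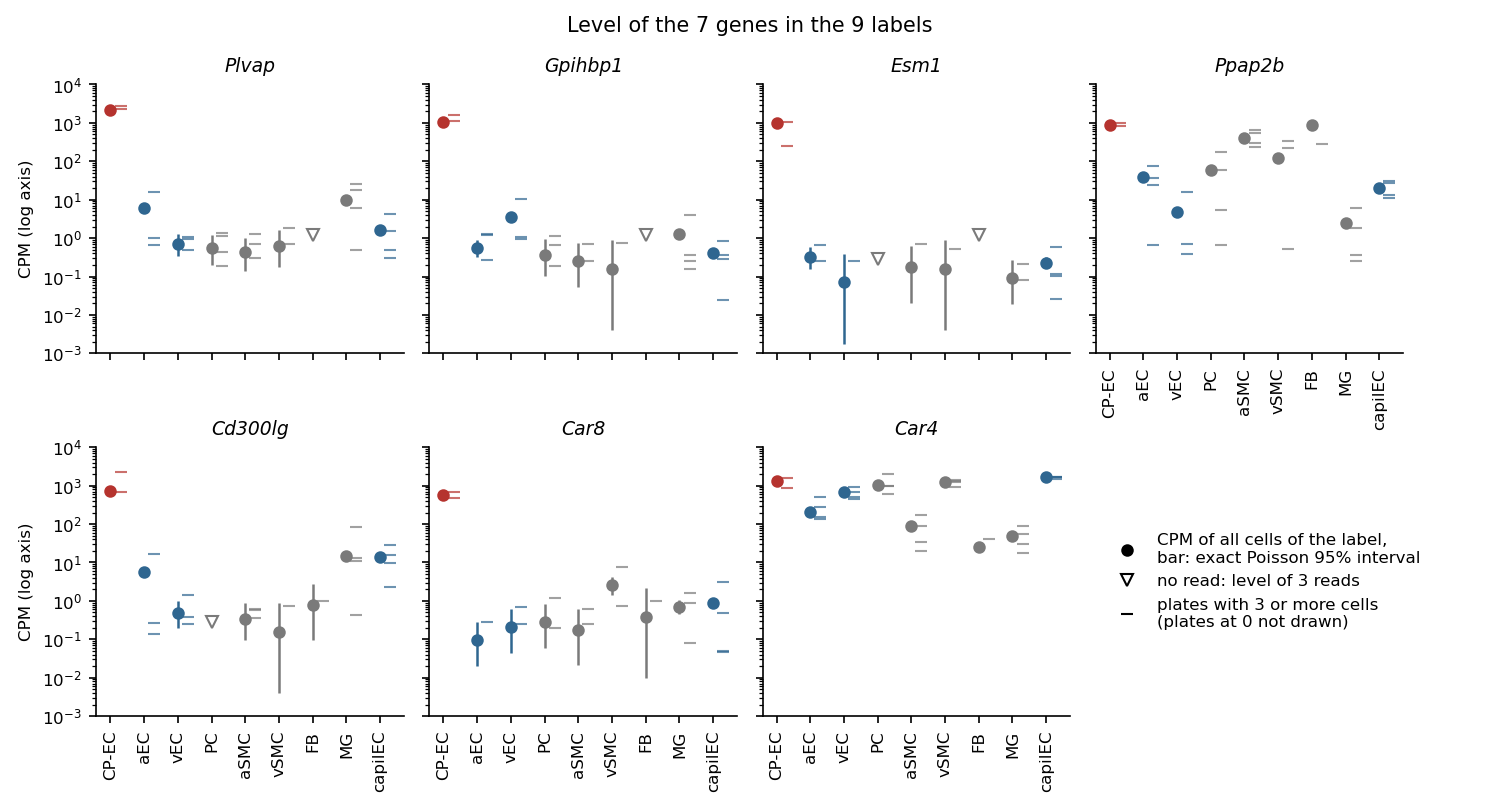
Level of each gene in the 9 labels, in CPM on a log axis; circles are all cells of a label with the exact Poisson 95% interval, dashes are plates with at least 3 cells (plates at 0 not drawn), and open triangles mark the level of 3 reads where a label had none. Plvap, Gpihbp1, Esm1, Cd300lg and Car8 stand at 567 to 2223 CPM in CP-EC and at or below 14.8 CPM elsewhere, whereas Ppap2b is as high in FB and Car4 is highest in capilEC.

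Per kilobase of exon, which allows genes to be compared, the CP-EC levels ran in the order Plvap, Car4, Esm1, Gpihbp1, Ppap2b, Cd300lg and Car8. Plvap had 1119 CPM per kilobase in CP-EC, Car4 had 654 and Esm1 had 472. Gpihbp1 followed with 416 CPM per kilobase, Ppap2b with 271, Cd300lg with 265 and Car8 with 147. Exon lengths were those of the GENCODE M21 annotation of build GRCm38 and ran from 1966 bases for Car4 to 3853 bases for Car8.

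Single CP-EC cells carried several of the genes at once. After each cell was thinned to 100000 reads, Plvap had a read in 88.2% of CP-EC cells (exact binomial Clopper-Pearson interval 63.6% to 98.5%) and Ppap2b in 82.4% (56.6% to 96.2%). Gpihbp1, Cd300lg and Car8 each had a read in 64.7% (38.3% to 85.8%) and Esm1 in 41.2% (18.4% to 67.1%). These intervals all overlap, but the shares come from the same 17 cells, so the overlap does not say whether they differ. At 100 CPM or more, 9 cells had Plvap without Esm1 and 1 had Esm1 without Plvap. Leaving out Car4, 16 of 17 CP-EC cells had at least 2 of the other 6 genes at 100 CPM or more, 14 had at least 3, 11 at least 4, 9 at least 5 and 3 all 6. Of the 1218 cells with other labels, 2 had at least 2 of the genes at that level and 1 had at least 3. In the thinned cells the median number of the 6 genes with a read was 5 in CP-EC, 1 in aSMC and FB, and 0 in the remaining labels, capilEC included. The cell outside CP-EC with 3 genes was an MG cell in well O20 of plate s482s, with 720 CPM of Plvap, 176 CPM of Gpihbp1 and 210 CPM of Ppap2b. The CP-EC cell in well P20 of the same plate, next to it, had 3664 CPM of Plvap and 600 CPM of Cx3cr1, a microglial receptor gene. Whether material passed between these wells was not tested.

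Within CP-EC the genes were not carried in fixed proportion. The 3 cells with all 6 genes were well H1 of plate s169s and wells A24 and A6 of plate s483s. Esm1 was never seen without Ppap2b in CP-EC: 7 cells had both, 7 had Ppap2b only and 3 had neither. Esm1 and Cd300lg shared the fewest cells, with 3 cells holding both, 4 Esm1 only, 8 Cd300lg only and 2 neither. Gpihbp1 and Car8 were together in 9 cells and each alone in 2. With Ppap2b read in 14 and Cd300lg in 11 of the 17 cells, such overlaps can arise from numbers alone, and pairing was not tested. How many of the zeros are transcripts that were not captured was not measured here.

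**Figure D2:**
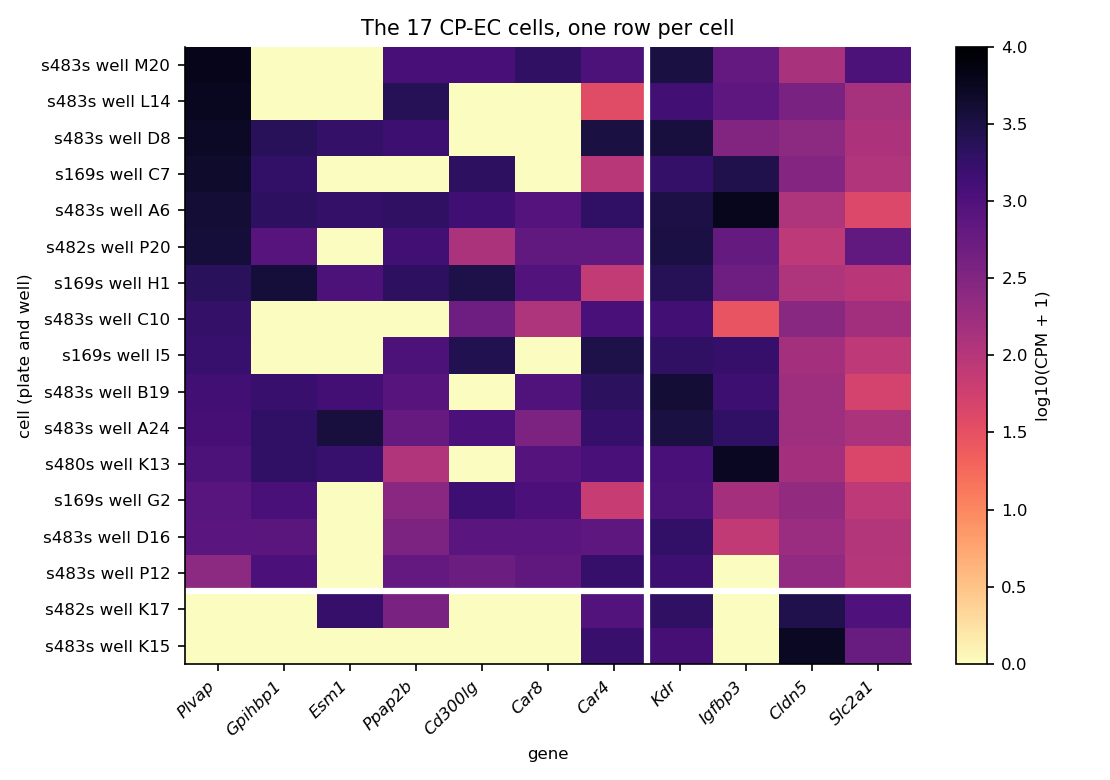
Heat map of the 17 CP-EC cells (rows, plate and well) for the 7 genes and for Kdr, Igfbp3, Cldn5 and Slc2a1 (columns), coloured by log10(CPM + 1). The bottom 2 cells have 2765 and 5270 CPM of Cldn5 and no read of Plvap, Gpihbp1, Cd300lg or Car8, while the 15 above them have 254 to 6474 CPM of Plvap.

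Within CP-EC, Car4 differed between plates. It was at or above 1000 CPM in 10 of 17 cells and below 100 CPM in 4, and 3 of those 4 were among the 4 cells of plate s169s. The plate levels were 867 CPM on s169s and 1578 CPM on s483s. The 2 cells high in Cldn5 had 906 and 1620 CPM of Car4, inside the range of the other 15, which was 36.5 to 3393 CPM.

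Against capilEC, the label with the most cells, 5 of the 7 genes met a size rule of at least 50 CPM in the higher label, a read in at least 50% of its cells and a 4-fold difference. The rule was met in this direction by 67 of 11565 measured genes, or 0.579%, and in the other direction by 189 genes, or 1.63%. Because the 7 genes were chosen for this contrast, nothing is read from their count. The differences of CP-EC minus capilEC were 8.40 log2 units for Plvap, 7.62 for Gpihbp1, 7.57 for Esm1, 6.61 for Car8, 5.28 for Cd300lg, 5.10 for Ppap2b and -0.36 for Car4. The median of all measured genes was -0.38 log2 units, close to the Car4 value, but it depended on the setting. That median was -0.63 without the 2 cells high in Cldn5, -1.17 without plate s483s and -1.40 without each gene's largest cell. Car4 ranged from -0.87 to -0.22 over the alternatives. Esm1 missed the rule by its share of CP-EC cells with a read, 41.2%, while Gpihbp1, Cd300lg and Car8 met the limit of 50% with 64.7%. Without the 2 cells high in Cldn5, 5 of 7 again met it.

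**Figure D3:**
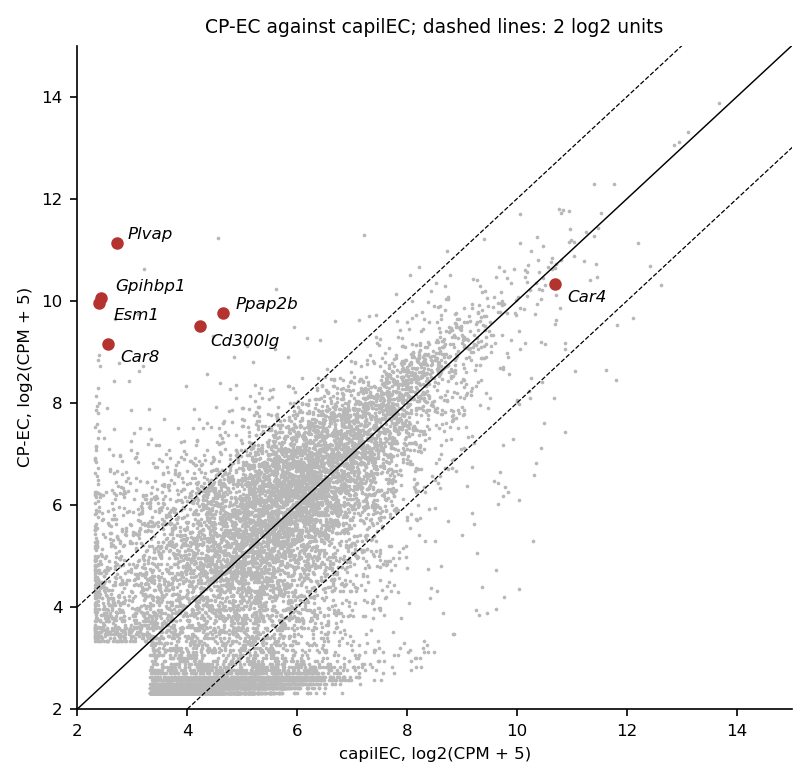
Levels in CP-EC (vertical) and capilEC (horizontal) of the 11565 genes with over 5 CPM in either, as log2(CPM + 5), with the 7 genes in red and dashed lines at a difference of 2 log2 units. Car4 lies near the diagonal at -0.36 log2 units and the other 6 lie 5.10 to 8.40 units above it.

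With the mean of aEC, vEC and capilEC as the comparison, the same 5 genes met the rule, beside 62 of 11796 genes or 0.526%. The Car4 difference was then 0.59 log2 units, since 1285 CPM in CP-EC stood against a mean of 851 CPM over the 3 labels. The other 6 genes differed by 5.02 log2 units (Ppap2b) to 8.15 (Plvap). These 2 comparisons share the CP-EC and capilEC cells and are not separate evidence.

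Between aEC, vEC and capilEC, Car4 was the gene of the 7 with the highest levels. The log2 difference of aEC minus capilEC was -2.98, and Car4 was the 1 gene of the 7 to meet the size rule there, which 11 of 11520 genes or 0.0955% did in that direction. The aEC plates gave 498 CPM on s169s, 134 on s480s, 149 on s482s and 272 on s483s, and the capilEC plates gave 1511 to 1726 CPM, so no aEC plate reached any capilEC plate. In vEC the Car4 difference from capilEC was -1.22 log2 units, and 0 of the 7 genes met the rule in the lower direction, beside 25 of 11820 genes or 0.212%. The vEC plates, at 451 to 915 CPM, also lay below the capilEC plates. Between aEC and vEC the difference was -1.75 log2 units, with 1 aEC plate (498 CPM) inside the vEC range. How the labels were assigned to cells, and whether Car4 was used for it, is stated in no source at hand.

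Within each label Car4 varied widely from cell to cell. It reached 1000 CPM in 10 of 17 CP-EC cells, 11 of 116 aEC cells, 14 of 45 vEC cells and 523 of 787 capilEC cells. Below 100 CPM were 4 CP-EC, 88 aEC, 16 vEC and 143 capilEC cells. Nearly every cell of every label had some Car4 reads, including 132 of 137 MG cells and 9 of 9 FB cells, at a median of 27.2 CPM in MG, 31.7 CPM in FB, 26.4 CPM in aSMC and 23.6 CPM in aEC. A read of Car4 at that level therefore does not separate labels, and where those reads come from was not tested.

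**Figure D4:**
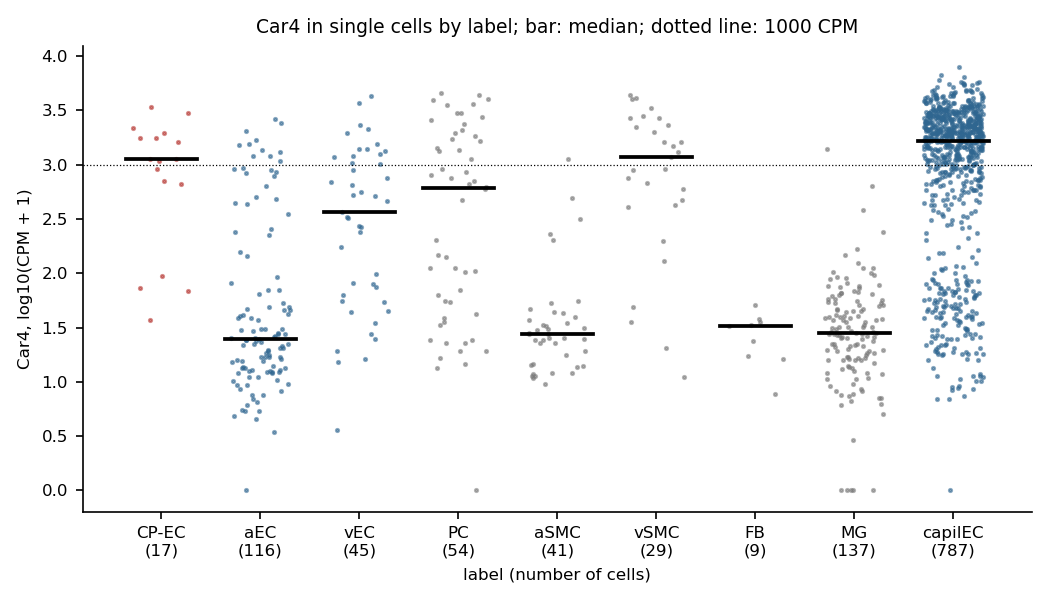
Car4 in each single cell by label, as log10(CPM + 1), with the number of cells under each label, a bar at the median and a dotted line at 1000 CPM. In capilEC 523 of 787 cells lie on or above the line and 143 lie below 100 CPM, while in aEC 88 of 116 cells lie below 100 CPM.

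Among capilEC cells, taken plate by plate because cells share plate and depth, Car4 was compared with 26 barrier and capillary genes. The highest correlation was with Slc38a5, an amino acid transporter gene, with Pearson's r of 0.29 to 0.39 over the 4 plates. Next among the barrier and capillary genes by their lowest plate was Slc22a8, an organic anion transporter, at 0.19 to 0.25. Slc16a1, the lactate and ketone transporter, gave 0.13 to 0.34. The chemokine gene Cxcl12 ran the other way at -0.30 to -0.13. Mfsd2a, the lipid transporter of the barrier, gave -0.20 to 0.03. Reads per cell gave -0.11 to 0.14. These are descriptions over 150 to 223 cells per plate.

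PC, aSMC and vSMC cells were split by the summed endothelial markers at 10% of their median in endothelial cells. In PC, 35 cells above that limit of 1712 CPM had 1426 CPM of Car4 and the 19 cells below had 400 CPM. In aSMC, the 8 cells above had 288 CPM and the 33 below had 35.4 CPM. In vSMC, the 12 cells above had 999 CPM and the 17 below had 1505 CPM. The part of endothelial RNA in these levels was not tested. Ppap2b in aSMC was 408 CPM in the 8 cells above and 406 CPM in the 33 below.

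Other genes of each pathway were taken from lists and counted by the size rule in CP-EC against capilEC. Around Gpihbp1, 9 of 16 genes of lipoprotein lipase and fatty acid uptake were measured and 0 met the rule in either direction, at a list median of 0.31 log2 units. Lpl, the lipase itself, was below the 5 CPM that counts as measured, with 0.604 CPM in CP-EC and 2.16 CPM in capilEC, and Cd36, the fatty acid receptor, had 0 reads in CP-EC. Tcf15, a transcription factor gene of that list, had 99.7 CPM in CP-EC and 18.3 CPM in capilEC, with a read in 2 of 17 CP-EC cells. Angptl4, of the same list, went the other way, at 1.21 CPM in CP-EC and 109 CPM in capilEC. Its difference was -4.20 log2 units, but it missed the share of cells. Gpihbp1 was thus high in CP-EC while the gene of the lipase that it binds had reads in 2 of 17 CP-EC cells.

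Around Ppap2b, 12 of 23 genes of lipid phosphate phosphatases and lysophosphatidic acid signalling were measured, with a list median of -0.40 log2 units. The rule was met as lower by 0 of them and as higher by 1, Ppap2a, the paralogous lipid phosphate phosphatase, at 2491 CPM in CP-EC and 144 CPM in capilEC, with a read in 16 of 17 CP-EC cells. In the other 7 labels Ppap2a stood at 84.2 to 195 CPM, with 174 CPM in FB and 88.7 CPM in aSMC, where Ppap2b was also high. Enpp2, which makes lysophosphatidic acid, had 250.5 CPM in CP-EC and 92.6 CPM in capilEC, but a median of 7.30 CPM over the CP-EC cells.

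Around Car4 and Car8, 4 of 14 other carbonic anhydrase genes were measured. Car2, the main cytosolic enzyme, met the rule as lower, at 47.4 CPM in CP-EC and 285 CPM in capilEC, a difference of -2.47 log2 units. It missed the rule when plate s483s was left out or every cell was given equal weight. The Car2 cell medians were close, at 5.79 CPM in CP-EC and 9.06 CPM in capilEC. On plate s169s CP-EC had 255 CPM and capilEC 432 CPM of Car2, and on s483s 18.9 and 258 CPM. Car14, a membrane-bound enzyme, had 1.81 CPM in CP-EC and 90.9 CPM in capilEC, but missed the share of cells. In CP-EC 9 of the 14 had no read. Around Cd300lg, 0 of 6 other CD300 genes in the table were measured in CP-EC or capilEC, and Cd300a was at 314 CPM in MG. Around Plvap, 8 of 10 caveola genes were measured and 0 met the rule, with Cav1, the main endothelial caveolin, at 593 CPM in CP-EC and 941 CPM in capilEC. Without the 2 cells high in Cldn5, Prkcdbp, a caveola coat gene also called Cavin3, met the rule as higher. With all 17 cells it stood at 602 CPM in CP-EC and 177 CPM in capilEC.

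Esm1 was read beside 19 genes of VEGF signalling and tip cells, 16 of them measured, whose median difference was 1.82 log2 units. The 1 gene that met the rule as higher was Igfbp3, an insulin-like growth factor binding protein, at 1571 CPM in CP-EC and 4.23 CPM in capilEC, and 0 met it as lower. Kdr stood at 2374 CPM in CP-EC and 668 CPM in capilEC, a difference of 1.82 log2 units, below the 4-fold limit. Nrp1, a co-receptor of VEGF, had 1289 CPM in CP-EC and 361 CPM in capilEC and met the rule once the 2 cells high in Cldn5 were left out. Apln, the apelin gene, had 227 CPM in CP-EC and 2.91 CPM in capilEC, with a read in 1 of 17 CP-EC cells. That cell was 1 of the 2 high in Cldn5, and without them the Apln difference was -0.66 log2 units in place of 4.88. Angpt2, the angiopoietin-2 gene, had 545 CPM in CP-EC and 28.8 CPM in capilEC, with a read in 8 of 17 CP-EC cells. Its difference was 1.97 log2 units without the 2 cells high in Cldn5, in place of 4.02. With no minimum share of cells 7 genes of this list were higher and 2 lower.

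Of 19 genes of the blood-brain barrier, 14 met the rule as lower in CP-EC and 0 as higher, beside 1.63% of all measured genes as lower. The number lower was 17 without the 2 cells high in Cldn5 and 10 without plate s483s. Cldn5 had 810.1 CPM in CP-EC and 4425 CPM in capilEC with all 17 cells, and 176 CPM in the 15 CP-EC cells that carried Plvap. Slc2a1, the glucose transporter, had 346 CPM in CP-EC and 3573 CPM in capilEC, and Mfsd2a had 139.9 CPM in CP-EC and 851 CPM in capilEC. Without the 2 cells high in Cldn5 the Mfsd2a difference was -5.72 log2 units in place of -2.56. Of 18 Wnt pathway and barrier regulator genes, 8 were lower and 0 higher, again beside 1.63% of all genes as lower, among them Lef1, a Wnt transcription factor, at 6.04 CPM in CP-EC and 454 CPM in capilEC. Of 10 capillary genes, 6 were lower and 0 higher, beside the same 1.63%, among them Spock2, a proteoglycan gene, at 91.0 CPM in CP-EC and 1261 CPM in capilEC, and Tfrc, the transferrin receptor gene, at 21.5 CPM in CP-EC and 778 CPM in capilEC. Mfsd2a, Slc16a1 and Tfrc stand on both the barrier and the capillary list and were lower, so the counts of these lists are not separate. The Spock2 difference was -5.71 log2 units without the 2 cells high in Cldn5, in place of -3.72. Car4, which is not on the capillary list, did not meet the rule.

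**Figure D5:**
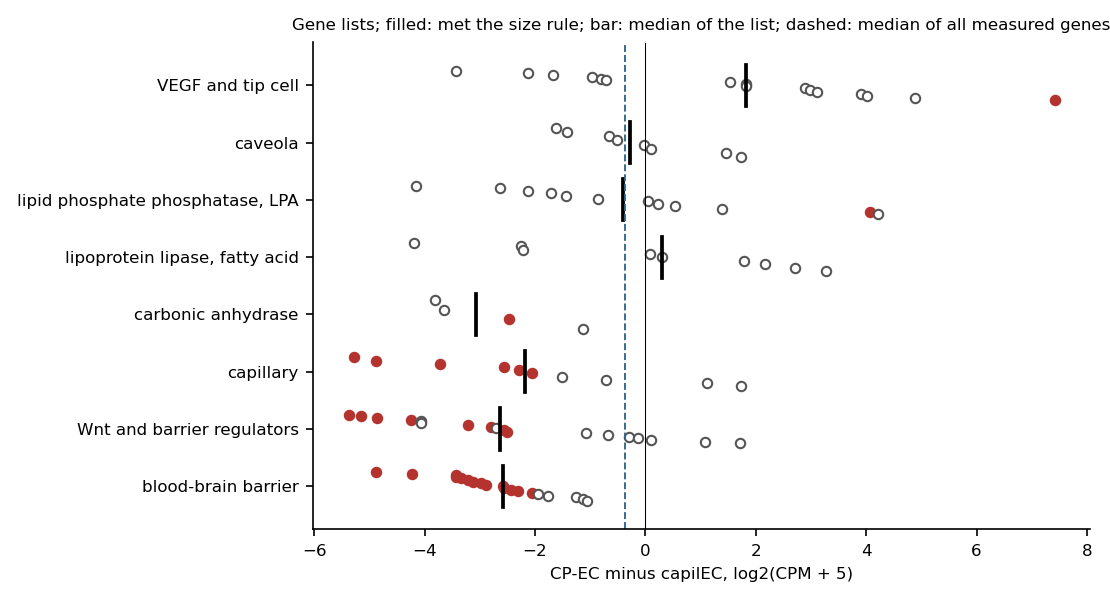
Difference of CP-EC minus capilEC, as log2(CPM + 5), for the measured genes of 8 lists; filled circles met the size rule, black bars are list medians and the dashed line is the median of all measured genes at -0.38, with the vertical offset within a list only separating points. The VEGF and tip cell list has a median of 1.82 and the barrier list one of -2.58.

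Markers of other cells were low in CP-EC but not absent. Of 10 microglia and macrophage markers 6 were measured, and C1qa, a complement gene, met the rule as higher, at 161 CPM in CP-EC and 21.7 CPM in capilEC. The summed list was 502 CPM in CP-EC, 133 CPM in capilEC and 24220 CPM in MG. It exceeded 1000 CPM in 2 CP-EC cells, well C7 of plate s169s at 2583 CPM and well P20 of plate s482s at 4915 CPM. With those 2 cells left out the CP-EC levels were 2018 CPM for Plvap, 1044 for Gpihbp1, 1107 for Esm1, 854 for Ppap2b, 719 for Cd300lg, 583 for Car8 and 1381 for Car4, so the levels were nearly as large or larger without them. Without all cells with markers of another class, these 2 and 17 capilEC cells among them, 0 microglia markers met the rule. The summed fibroblast markers were 4.23 CPM in CP-EC and 6.87 CPM in capilEC, and 0 of 8 were measured. Of the mural, astrocyte, and neuron and oligodendrocyte markers 3, 4 and 4 were measured, and 0 met the rule as higher in CP-EC, while Rgs5, a pericyte marker, met it as lower at 9.37 CPM in CP-EC and 77.0 CPM in capilEC.

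The genes most like each of the 7 over the 9 labels were found by Pearson's r of log2(CPM + 5) among 8574 genes with at least 50 CPM in their highest label. For the 5 genes high in CP-EC alone, this likeness rests on that 1 label. Closest to Plvap were Rbp7, a retinoid-binding protein gene (r = 0.99, 277 CPM in CP-EC, a read in 9 of 17 cells), and Exoc3l2 (r = 0.99, 113 CPM, 4 of 17 cells). The table's rows Olfr1396 and Olfr1396.1, which share a symbol and could share reads, were the last of the 3 for Gpihbp1 and for Plvap. Ptprq was closest to Gpihbp1, Rnf225 to Esm1, Zfp513 to Cd300lg and Adgrd1 to Car8, and each of these 4 genes had reads in 1 CP-EC cell only. Lbx2 and Nkapl, next for Cd300lg, and Isx, named for Esm1 and Car8, likewise had reads in 1 CP-EC cell. Esm1 itself was second for Car8 (r = 1.00 to 2 decimals, 7 of 17 cells).

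Ppap2b and Car4 had no gene at r of 0.95 or more. Closest to Ppap2b were Rnasek (r = 0.92), Pcmt1 (r = 0.92) and Ctgf (r = 0.91), a matricellular gene also high in aSMC at 245 CPM and at 111 CPM in CP-EC. Closest to Car4 were Pcdh19, a protocadherin gene (r = 0.94), Ptpn14, a phosphatase gene (r = 0.93), and Lrrc8c, a subunit gene of volume-regulated anion channels (r = 0.92). Among the 7 genes themselves, Plvap, Gpihbp1, Esm1, Cd300lg and Car8 had r of 0.94 to 1.00 with each other over the 9 labels. With those 5, Ppap2b had r of 0.28 to 0.49 and Car4 of 0.26 to 0.35, and Ppap2b with Car4 had r of -0.14.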

How the data were processed

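Per the labels, vascular fragments of dissociated adult mouse brain were digested to single cells and Smart-seq2 libraries were made. The authors deposited raw read counts per gene and cell and a table with 1 label per cell. The submitters' processing notes name featureCounts, Subread 1.4.6-p5 and SAMtools 1.16.1, with GRCm38 and GRCm39 given no role. Filters on cells, doublets and strand are not given in the sources used here; without strand, overlapping antisense genes cannot be told apart. All 1235 cells were used, with 0 columns left out.

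Counts were summed per label and scaled to CPM, with a pseudocount of 5 CPM for log2 differences. The 95% intervals, exact Poisson for sums of reads and exact binomial for shares of cells, cover counting error of reads or of cells only. Copies made by PCR carry no molecular tag, so the Poisson intervals treat them as separate reads and can be too narrow. The binomial intervals treat cells as independent. The floor of 3 reads was 0.0173 CPM in capilEC to 1.17 CPM in FB. For genes per cell, cells were thinned to 100000 reads (0 were shallower). Plate values needed 3 cells, and genes above 5 CPM in at least 1 of the groups compared were called measured. No doublet caller was run. The 7 genes, the 16 lists and the comparisons were chosen with earlier results of these data known. Named genes are the 7, the 3 most like each, list genes that met the size rule, and Lpl, Cd36, Car2, Ppap2a, Enpp2, Cav1, Kdr, Mfsd2a, Slc2a1 and Cldn5 by role. Ttr, Aqp1, Folr1, Clic6, Otx2, Cldn2, Mbp, Cx3cr1, Tcf15, Angptl4, Car14, Cd300a, Prkcdbp, Nrp1, Apln, Angpt2, Slc38a5, Slc22a8, Slc16a1 and Cxcl12 were named after their values were seen.

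Alternatives were TMM (edgeR 4.0.16) and DESeq2 1.42.0 factors, masking ribosomal RNA and mitochondrial rows, weighting cells equally, a pseudocount of 1 or 20 CPM, dropping either minimum of the size rule, and leaving out each plate, each gene's largest cell, or cells with markers of another class above 10% of its median. Leaving out the 2 CP-EC cells over 1000 CPM of Cldn5 was added after the data were seen. Python 3.11.15 and R 4.3.3 were used, and the size rule was tested on simulated data.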

Additional observations from a re-analysis of the deposited data

How the results depend on the processing

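The number of the 7 genes at least 4-fold higher in CP-EC was 5 against capilEC and 5 against the mean of aEC, vEC and capilEC under all alternatives but one: without a minimum share of cells it was 6 in both, Esm1 being added. Across all genes, 67 were higher and 189 lower in CP-EC than in capilEC, and 62 were higher than in the mean of the 3 labels. Without the minimum share these were 421, 756 and 395, and without plate s483s, which held 10 of the 17 CP-EC cells, they were 124, 372 and 137. Without the largest cell of each gene 397 genes were lower than in capilEC. The cause was not tested. Between CP-EC and capilEC the 6 genes other than Car4 kept a difference of at least 4.45 log2 units (Ppap2b) under every alternative, and Car4 ranged from -0.87 to -0.22. The Car4 difference of aEC from capilEC ranged from -3.24 to -2.75. Of 434 alternative values of single genes 14 had the other sign, all of them differences between aEC, vEC and capilEC of the 5 genes at the lowest levels there, none of which met the size rule. TMM and DESeq2 factors moved the differences of CP-EC against capilEC by a median over genes of -0.11 and -0.15 log2 units. Leaving out the largest cell of each gene moved them by a median of -0.61. The median difference of all genes, -0.38 as given above, was -0.49 with TMM and -0.53 with DESeq2 factors. It was -1.17 without plate s483s and -1.40 without the largest cell of each gene. The list counts of CP-EC against capilEC also moved. Without plate s483s 10 barrier genes were lower in place of 14, 6 Wnt and regulator genes in place of 8, 4 capillary genes in place of 6 and 0 carbonic anhydrase genes in place of 1. There 2 caveola genes and 1 VEGF and tip cell gene were lower in place of 0, and 1 Wnt and 1 choroid plexus epithelium gene higher in place of 0. Higher there were also 2 VEGF and tip cell, 2 lipid phosphate and 3 microglia genes in place of 1 each. With no minimum share of cells 7 VEGF and tip cell genes were higher and 2 lower, 2 choroid plexus epithelium genes higher, 2 lipid phosphate genes higher and 2 lower, 1 lipoprotein lipase gene higher and 1 lower, 1 neuron and oligodendrocyte gene higher, and 3 carbonic anhydrase and 11 Wnt and regulator genes lower. Without plate s169s 3 VEGF and tip cell genes were higher. Over every alternative run, 10 to 17 barrier, 6 to 11 Wnt and regulator and 4 to 7 capillary genes were lower. The Rgs5 call was lost with a pseudocount of 20 CPM. With 17 CP-EC and 9 FB cells and 1 sample per label, depth and cell number limit CP-EC and FB most. No paired analysis was possible because each label is 1 sample and the labels share no replicate numbers beyond 1.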
